A study of Mus musculus with 6 samples.

Results

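The transcripts described here encode 40 ribosome biogenesis and nucleolar factors of the mouse, chosen by gene symbol as components of RNA polymerase I, of small nucleolar ribonucleoproteins (snoRNPs) and of ribosome assembly, with ribosomal proteins left out. All 40 symbols were found among the 24411 genes of the deposited count tables. The cells were primary microglia, the resident macrophages of the brain, grown for this purpose from pooled brains of 12 ICR mice aged 3 days. They were shaken off mixed glial cultures, and over 92% carried CD11b on flow cytometry, per the labels' protocols. One group (3 libraries) received FTY720 (fingolimod, a sphingosine analogue) at 1 µM for 4 h, and the other (3 libraries) received FTY720 at 1 µM and lipopolysaccharide (LPS, a bacterial cell wall component) at 10 ng/ml for 4 h. Both groups carried FTY720, so the comparison is of added LPS in the presence of the drug, and the labels do not say whether one agent preceded the other.

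Ribosomes are built in the nucleolus, where RNA polymerase I copies the ribosomal DNA into one long precursor RNA. Box C/D snoRNPs methylate this precursor, box H/ACA snoRNPs convert selected uridines to pseudouridine, and large assemblies of further proteins cut it and fold it into the small (40S) and large (60S) subunits. Many genes of this pathway are known targets of the transcription factor MYC, and their output is adjusted to growth and activation in macrophages as in other cells.

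Reads assigned to genes on the sense strand numbered 2431775 to 3454647 per library. Rn45s, the annotated ribosomal RNA precursor, together with Lars2 and Mir6236, which collect reads like ribosomal RNA, took 28.8% to 59.0% of them, so 1340915 to 2116218 reads remained for all other genes. The labelled cell type was carried by its markers: the summed level of 15 microglial genes, in TMM-scaled CPM (sense reads scaled to library size, with edgeR's correction for library composition), was 3150 to 3400 with FTY720 and 5010 to 5740 with LPS added, and 12 of 14 tested were higher and 1 lower. Scaling by total library size left 2 of these 14 higher and 1 lower, and removal of the trend on mean expression 5 higher and 2 lower. Of 6 tested oligodendrocyte-lineage markers 5 were lower (8 genes, summed level 268 to 293 and 142 to 163 CPM) and of 4 tested neuron markers 3 were lower (7 genes, 188 to 251 and 107 to 117 CPM), with no marker of either list at 0 in all libraries. Of 6 tested astrocyte markers 2 were higher and 1 lower (8 genes, 87.1 to 107 and 99.4 to 138 CPM). Of 7 tested cell cycle genes 1 was lower (12 genes, 76.1 to 89.2 and 66.8 to 81.1 CPM), while in the fibroblast and mural list (7 genes, 57.2 to 141 and 105 to 165 CPM, Rgs5 at 0) edgeR and DESeq2 each called 0 of 5, with 2 and 0 at an unadjusted p under 0.05. The part of these other cells in the results below was not tested, and in bulk RNA fewer cells of a type and less RNA per cell cannot be told apart.

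Adding LPS raised 12 of the 37 genes that could be tested and lowered 2, while 23 did not pass the test (edgeR's quasi-likelihood test, Benjamini-Hochberg adjusted p under 0.05 over all 10124 tested genes). Over all tested genes 23.3% were called higher and 22.7% lower, against 32.4% and 5.41% of these 37. The genes that rose were Nop56, Ncl, Npm1, Brix1, Nop10, Nop58, Polr1c, Nop14, Ddx21, Rrp9, Nat10 and Bop1, and those that fell were Polr1a and Wdr12. The 3 members Nop56, Ncl and Npm1 were at least 2-fold higher and none (0) was at least 2-fold lower by edgeR, where 8.49% and 9.59% of all tested genes were called at that size. The median log2 fold change was 0.25 over the 37 genes and -0.04 over all tested genes. All 3 libraries of one group lay above all 3 of the other for 15 genes with LPS (40.5%, against 27.1% of all tested genes) and below for 3 (8.11%, against 26.9%). The 23 genes that did not pass lay between -0.68 and 0.67, 14 above 0 and 9 below. The plot of fold changes by role shows that genes that rose were found in every role group. The 2 that fell belonged to RNA polymerase I and to large subunit assembly. Genes that passed often stood beside partners that did not.

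**Figure D1:**
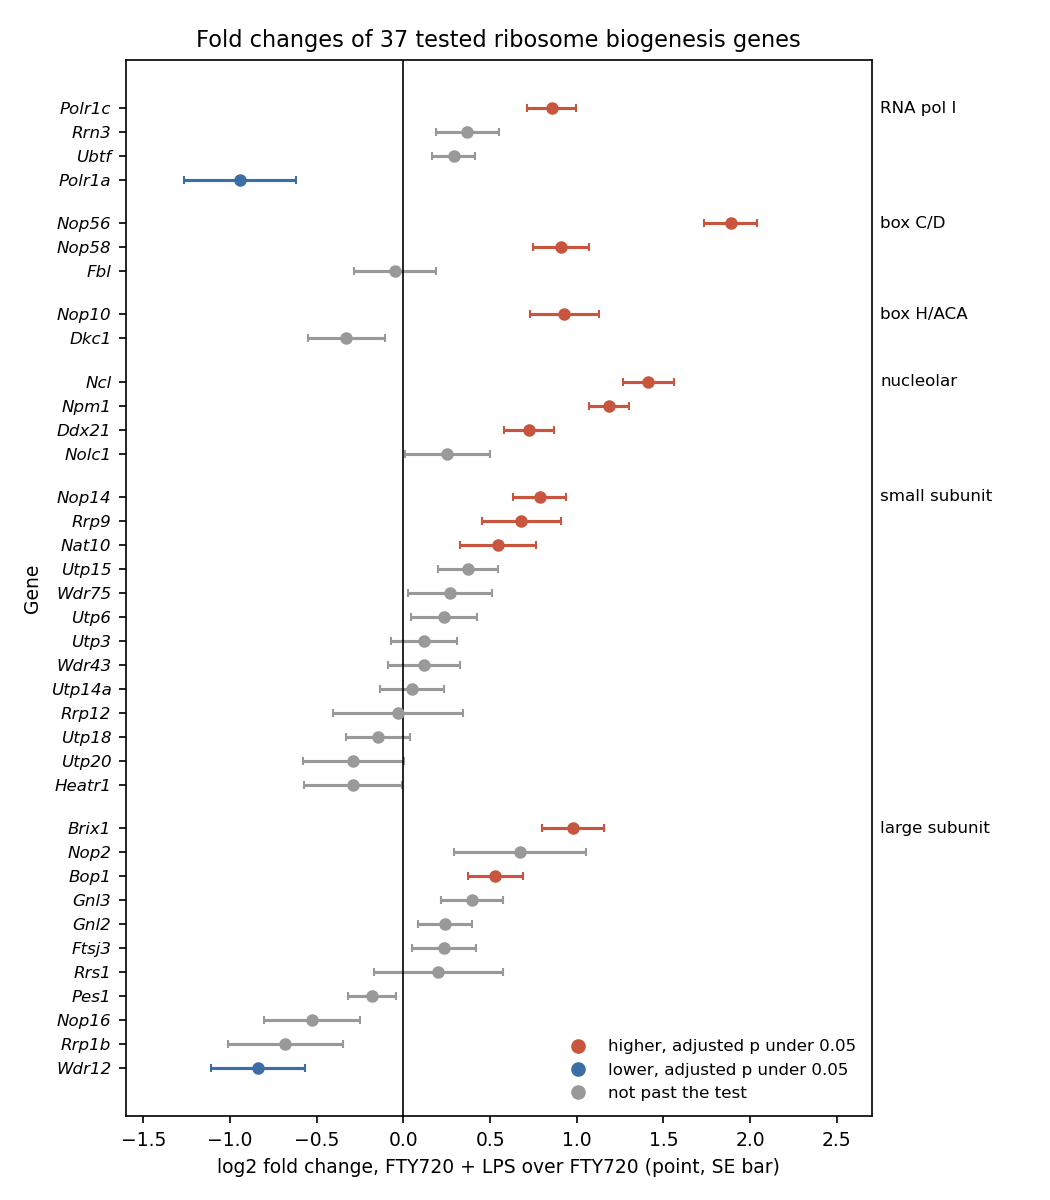
Log2 fold change (x axis) of the 37 tested genes (y axis) with FTY720 and LPS over FTY720, grouped by role; bars are standard errors from edgeR with 3 libraries per group. In this TMM-scaled fit 12 genes were called higher, led by Nop56 at 1.89, and 2 lower, Polr1a at -0.94 and Wdr12 at -0.84.

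These counts depended on the scaling. Scaled by total library size alone, which includes the reads like ribosomal RNA, 3 members were called higher (Nop56, Ncl and Npm1) and 3 lower (Polr1a, Wdr12 and Rrp1b), where 7.57% of all tested genes were called higher and 26.6% lower and the median of all tested genes shifted from -0.04 to -0.35. DESeq2 called 11 members higher and 0 lower (2 lower at an unadjusted p under 0.05), where it called 20.1% and 15.1% of all genes. Log2 fold changes also followed mean expression: Spearman's rho was 0.63 across the 37 members and 0.32 across all 10124 tested genes, a description across genes that share the same libraries. With the trend on mean expression removed, 14 members were higher and 0 lower by edgeR (1 lower at an unadjusted p under 0.05), where 21.3% and 18.5% of all genes were called. Without FTY720 replicate 3, whose TMM factor was 1.43, 13 members were higher and 5 lower by edgeR, where 26.6% and 24.3% of all genes were called.

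Among the genes of RNA polymerase I and its initiation factors, 1 of 4 tested rose and 1 fell. These shares of 25.0% and 25.0% lay near the 23.3% and 22.7% of all tested genes. The gene that rose and the gene that fell encode subunits of the same enzyme. Polr1c encodes a subunit shared with RNA polymerase III. It stood at 32.7, 33.7 and 39.6 CPM with FTY720 and at 66.4, 60.9 and 65.6 CPM with LPS added. The groups did not overlap, and Polr1c was 1.81-fold higher (log2 fold change 0.86 ± 0.14, SE, n = 3 per group, edgeR adjusted p = 3.41e-05). Polr1a, which encodes the largest subunit, stood at 12.0, 11.0 and 6.36 CPM with FTY720 and at 5.22, 5.50 and 4.01 CPM with LPS, from 96 and 35 reads. Its groups did not overlap either, although FTY720 replicate 3 lay near the LPS libraries, and Polr1a was 1.92-fold lower (-0.94 ± 0.32, edgeR adjusted p = 0.021). The Polr1a call ended with DESeq2 (adjusted p = 0.0665), with the expression trend removed (-0.63, adjusted p = 0.13), and in the edgeR fits without FTY720 replicate 1 (-0.77, adjusted p = 0.101), FTY720 replicate 2 (-0.81, 0.0648), FTY720_LPS replicate 1 (-0.96, 0.0624) or FTY720_LPS replicate 3 (-0.81, 0.0907).

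Polr1b, the second-largest subunit, had 25 reads with FTY720 and 16 with LPS and was too scarce to test; the ratio of scaled reads was 0.931, with an exact 95% counting interval of 0.464 to 1.81. Ubtf encodes UBF, which binds the ribosomal DNA and opens it for transcription. It stood at 77.1, 78.1 and 67.8 CPM with FTY720 and at 91.4, 92.2 and 88.1 CPM with LPS, without overlap, at 0.29 ± 0.12 (edgeR adjusted p = 0.0589). Without FTY720 replicate 2 it passed the test (0.35, adjusted p = 0.0453 by edgeR), and with total library size alone it stood at -0.02. Rrn3 encodes TIF-IA, the factor that makes RNA polymerase I competent to start and that growth signals act on. It stood at 17.7, 24.0 and 25.7 CPM against 28.4, 30.9 and 28.5 CPM, also without overlap, at 0.37 ± 0.18 (edgeR adjusted p = 0.0994). Without FTY720 replicate 3 Rrn3 passed (0.49, edgeR adjusted p = 0.0247).

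Nop56 showed the largest change of the 37 genes. Its product is one of the 3 core proteins of box C/D snoRNPs encoded by these genes, beside Nop58 and the methyltransferase fibrillarin (Fbl). Nop56 stood at 22.0, 26.4 and 22.8 CPM with FTY720 and at 80.9, 80.4 and 103 CPM with LPS. The lowest LPS library was far above the highest FTY720 library, and the gene was 3.70-fold higher (1.89 ± 0.15, edgeR adjusted p = 5.31e-10). Nop58 stood at 24.0, 22.4 and 30.6 CPM against 52.6, 43.6 and 50.1 CPM. It too was separated and was 1.88-fold higher (0.91 ± 0.16, edgeR adjusted p = 8.8e-05). Fbl stood at 12.0, 21.4 and 25.2 CPM against 22.4, 19.5 and 15.0 CPM. These groups overlapped, with a log2 fold change of -0.05 ± 0.24 (edgeR adjusted p = 0.88), and FTY720 replicate 1 was the lowest of all 6.

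Ratios of reads between partners within one library do not depend on the scaling of the library. They can still carry differences between libraries that follow transcript length or mean expression. The ratio of Nop56 to Nop58 reads was 0.917, 1.18 and 0.746 with FTY720 and 1.54, 1.84 and 2.06 with LPS. That of Nop56 to Fbl was 1.83, 1.23 and 0.907 against 3.62, 4.13 and 6.87. In both ratios all LPS libraries lay above all FTY720 libraries.

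In the box H/ACA core, Nop10 rose while dyskerin did not pass the test. Nop10, a small protein that holds the core together, stood at 12.4, 18.4 and 24.0 CPM with FTY720 and at 34.7, 38.9 and 32.5 CPM with LPS. The groups did not overlap, and it was 1.90-fold higher (0.93 ± 0.20, edgeR adjusted p = 0.000676). Dkc1 encodes dyskerin, the pseudouridine synthase, which is also part of telomerase. It stood at 16.0, 15.4 and 23.5 CPM against 14.2, 14.0 and 16.5 CPM, overlapping, at -0.33 ± 0.22 (edgeR adjusted p = 0.231). The ratio of Nop10 to Dkc1 reads was 0.771, 1.20 and 1.02 with FTY720 and 2.45, 2.79 and 1.97 with LPS. The other core genes were too scarce to test. Gar1 had 7 and 4 reads (ratio 0.831, exact 95% counting interval 0.178 to 3.27), and Nhp2 had 28 and 19 (0.987, 0.521 to 1.83). Antisense reads made up 29.9% of the reads of Nhp2, which overlaps Rmnd5b on the other strand, and at most 7.75% for each of the other 39 members.

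Of the 4 genes that encode multifunctional nucleolar proteins 3 rose (75.0%, against 23.3% of all tested genes). Npm1 encodes nucleophosmin, a histone and ribosome chaperone. It stood at 261, 263 and 348 CPM with FTY720 and at 653, 645 and 693 CPM with LPS, and was 2.28-fold higher (1.19 ± 0.12, edgeR adjusted p = 1.48e-08). Npm1 alone made up 25.9% of the summed CPM of the 40 members with FTY720 and 35.9% with LPS. Ncl encodes nucleolin, which binds the precursor RNA and ribosomal DNA chromatin. It stood at 71.4, 50.4 and 48.7 CPM against 128, 157 and 167 CPM, and was 2.66-fold higher (1.41 ± 0.15, edgeR adjusted p = 4.41e-08). Neither gene had overlapping groups. Npm1 is known for processed pseudogenes, and reads shared with such copies were not counted, so its level is uncertain.

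Ddx21, an RNA helicase that links RNA polymerase I transcription to processing, stood at 39.4, 46.7 and 33.9 CPM against 64.5, 67.7 and 64.6 CPM. It was 1.65-fold higher without overlap (0.72 ± 0.15, edgeR adjusted p = 0.000307). Nolc1, a chaperone of snoRNPs, stood at 10.3 ± 1.64 and 12.2 ± 1.57 CPM (SD, n = 3), with overlapping groups and a log2 fold change of 0.25 ± 0.24 (edgeR adjusted p = 0.41). Of these 4 genes Npm1 and Ncl kept their calls in all 14 alternative fits, and the Ddx21 call ended with total library size alone (0.43, edgeR adjusted p = 0.245). Over the 14 fits the log2 fold change of Npm1 ran from 0.43 to 1.34 and that of Ncl from 1.09 to 1.60. The size of the Npm1 change thus depended on the processing.

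**Figure D2:**
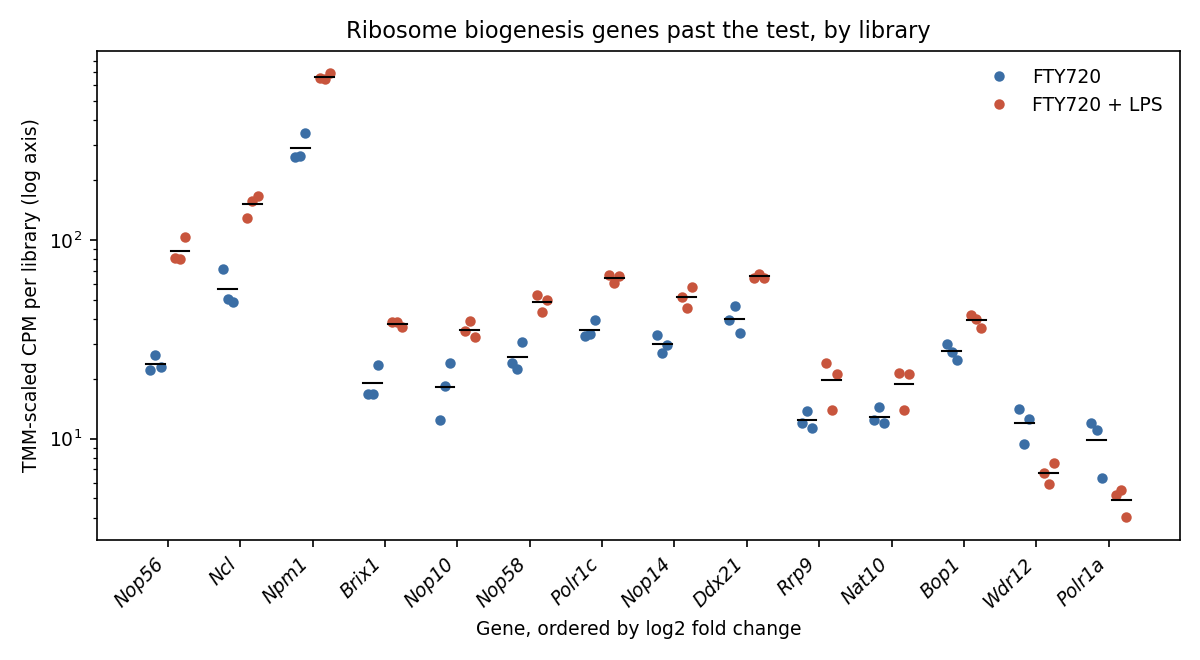
TMM-scaled CPM (log y axis) in each library of the 14 genes past the test (x axis), with FTY720 alone and with FTY720 and LPS; points are libraries and bars the means of 3. Nop56 moved from 22.0 to 26.4 CPM up to 80.4 to 103 CPM, whereas Nat10 was the one gene among the 14 whose groups overlapped.

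The small subunit processome, the assembly that forms on the nascent precursor and cuts out the 18S part, had 3 of 13 tested genes higher (23.1%, near the 23.3% of all tested genes) and 0 lower by edgeR (0 at an unadjusted p under 0.05; 2 higher and 0 lower by DESeq2). Nop14 stood at 33.0, 27.0 and 29.7 CPM with FTY720 and at 51.9, 45.3 and 58.1 CPM with LPS, and was 1.72-fold higher without overlap (0.79 ± 0.15, edgeR adjusted p = 0.000242). Rrp9 encodes the protein specific to the U3 snoRNP. It stood at 12.0, 13.7 and 11.3 CPM against 23.9, 14.0 and 21.0 CPM, and FTY720_LPS replicate 2 lay just above the highest FTY720 library. It was 1.60-fold higher (0.68 ± 0.23, edgeR adjusted p = 0.0173). The Rrp9 call ended without FTY720_LPS replicate 1 (0.53, edgeR adjusted p = 0.123), with upper-quartile factors (0.55, 0.0505) and with total library size alone (0.37, 0.375).

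Nat10, the acetyltransferase that modifies 18S rRNA, stood at 12.4, 14.4 and 12.0 CPM against 21.3, 14.0 and 21.0 CPM. Its groups overlapped through FTY720_LPS replicate 2, and its log2 fold change of 0.54 ± 0.22 lay just past the test (edgeR adjusted p = 0.0469). The Nat10 call ended in 11 of 14 alternatives, among them the edgeR fits without FTY720 replicate 1 (0.52, adjusted p = 0.113), FTY720 replicate 3 (0.49, 0.0706), FTY720_LPS replicate 1 (0.46, 0.174) or FTY720_LPS replicate 3 (0.49, 0.125). The replicate block also ended it (0.54, edgeR adjusted p = 0.0677).

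The other 10 genes of this group did not pass. Utp15, a component of the subcomplex that also aids transcription of the ribosomal DNA, stood highest at 0.37 ± 0.17 (edgeR adjusted p = 0.0809), without overlap, and it passed with the expression trend removed (0.43, edgeR adjusted p = 0.049). Wdr75 (0.27 ± 0.24), Wdr43 (0.12 ± 0.21), Utp3 (0.12 ± 0.19), Utp6 (0.23 ± 0.19), Utp14a (0.05 ± 0.19) and Rrp12, which acts in subunit export (-0.03 ± 0.37), overlapped between the groups, as did Utp18 (-0.15 ± 0.18). The genes of the long scaffold proteins Heatr1 and Utp20 had the lowest log2 fold changes of this group. Heatr1 stood at 18.4, 17.7 and 8.004 CPM with FTY720 and at 10.8, 13.5 and 10.5 CPM with LPS. Utp20 stood at 17.02, 15.0 and 7.53 CPM against 9.70, 13.1 and 8.51 CPM. In both, FTY720 replicate 3 was the lowest of the 6 libraries, and without it both passed the test as lower (Heatr1 -0.63, edgeR adjusted p = 0.0204; Utp20 -0.60, 0.0363), against -0.29 ± 0.28 and -0.29 ± 0.29 with it.

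Of 11 genes of large subunit assembly 2 were higher (18.2%, against 23.3% of all tested genes), 1 was lower (9.09%, against 22.7%) and 8 did not pass the test. Brix1, a factor of early 60S assembly, stood at 16.7, 16.7 and 23.5 CPM with FTY720 and at 38.8, 38.5 and 36.6 CPM with LPS. It was 1.97-fold higher without overlap (0.98 ± 0.18, edgeR adjusted p = 0.000102). Bop1, Pes1 and Wdr12 encode the members of PeBoW, the complex that is needed to mature the 5.8S and 28S rRNA. Bop1 stood at 30.0, 27.4 and 25.0 CPM against 41.8, 40.2 and 36.0 CPM and was 1.44-fold higher (0.53 ± 0.16, edgeR adjusted p = 0.00907). Pes1 stood at 59.7, 54.4 and 61.2 CPM against 56.0, 45.7 and 53.1 CPM, overlapping, at -0.18 ± 0.14 (edgeR adjusted p = 0.291). Wdr12 stood at 14.0, 9.35 and 12.5 CPM against 6.71, 5.92 and 7.51 CPM and was 1.79-fold lower without overlap (-0.84 ± 0.27, edgeR adjusted p = 0.0146).

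Bop1 thus rose, Wdr12 fell and Pes1 did not pass the test. The ratio of Bop1 to Wdr12 reads was 2.14, 2.93 and 2.00 with FTY720 and 6.22, 6.79 and 4.80 with LPS. In GENCODE M21 the principal transcript is 2491 bases long for Bop1 and 10012 for Wdr12, the longest of the 37 genes. The Wdr12 call ended with DESeq2 (adjusted p = 0.0662), with the expression trend removed (-0.56, edgeR adjusted p = 0.104), and in the edgeR fits without FTY720 replicate 1 (-0.72, adjusted p = 0.0673), FTY720_LPS replicate 1 (-0.81, 0.0576) or FTY720_LPS replicate 2 (-0.74, 0.072). The Bop1 call ended with total library size alone (0.22, edgeR adjusted p = 0.593).

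**Figure D3:**
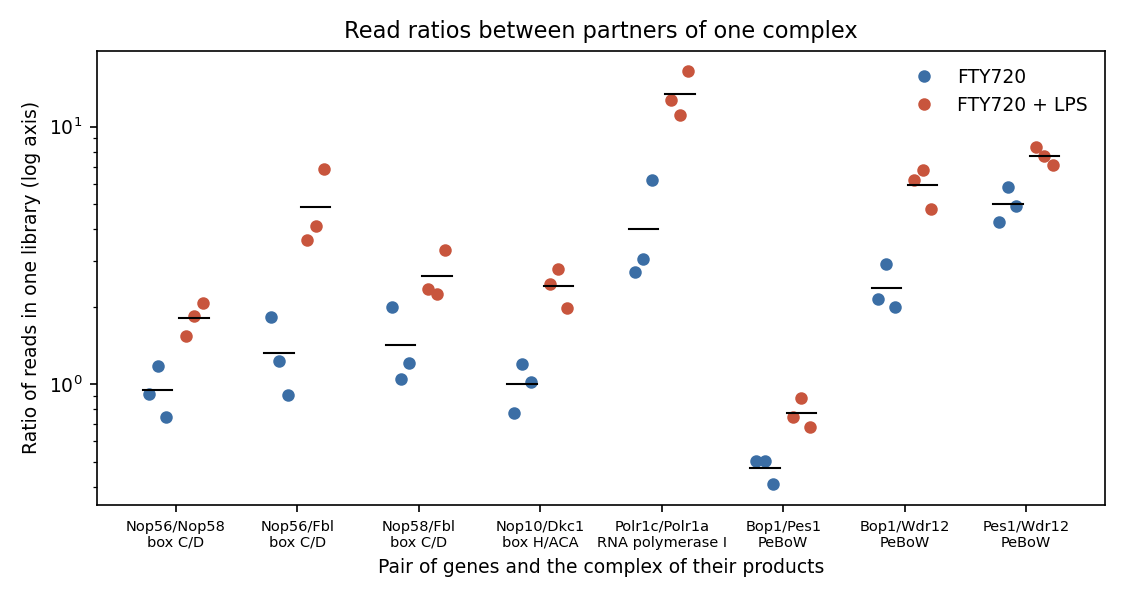
Ratio of sense reads between 2 genes in the same library (log y axis) for pairs whose products share a complex (x axis), with FTY720 alone and with FTY720 and LPS; points are libraries and bars the means of 3. In each of the 8 pairs, written with the larger change on top, the LPS libraries lay above the FTY720 libraries, as for Polr1c to Polr1a at 2.72 to 6.22 against 11.1 to 16.4. Other complexes among the genes were not paired.

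Every pair of tested members that share one of these 4 complexes was compared in this way, 8 pairs in all. Subunits outside the 40 genes, such as Nhp2l1, were not paired. Other complexes among the members were not paired either, so the 8 pairs do not stand for all partners. Utp15 and Heatr1, of one small subunit subcomplex, had 96 and 34 reads in FTY720 replicate 3. In FTY720_LPS replicate 1 they had 75 and 29, so for their ratio the LPS libraries did not all lie above the FTY720 libraries. The genes of the 8 pairs were known to differ before the ratios were formed, so the ratios describe the libraries and carry no test. The ratio of Polr1c to Polr1a was 2.72 and 3.06 in FTY720 replicates 1 and 2 and 6.22 in FTY720 replicate 3. Their principal transcripts are 1314 and 9216 bases long. In the box C/D pairs the gene on top had the longer transcript, and in the other pairs the shorter. The part of length in the ratios was not tested.

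Of the other 60S genes, Gnl3, which encodes the nucleolar GTPase nucleostemin, stood at 53.4, 31.7 and 53.2 CPM against 72.7, 60.1 and 49.1 CPM, with overlap (0.40 ± 0.18, edgeR adjusted p = 0.0732). It passed without FTY720 replicate 3 (0.53, edgeR adjusted p = 0.00603) or without FTY720_LPS replicate 3 (0.55, 0.034). The GTPase gene Gnl2 (0.24 ± 0.15), the methyltransferase gene Ftsj3 (0.23 ± 0.19) and Rrs1, which helps to load the 5S particle (0.20 ± 0.37), did not pass. Nop2, a methyltransferase of 28S rRNA, had 36 and 40 reads and a log2 fold change of 0.67 ± 0.38 (edgeR adjusted p = 0.154); it passed with the expression trend removed (1.05, edgeR adjusted p = 0.0315). Nop16 stood at 10.4, 10.0 and 9.65 CPM against 7.83, 8.04 and 4.51 CPM, without overlap (-0.53 ± 0.28, edgeR adjusted p = 0.127). Rrp1b stood at 10.0, 11.0 and 6.83 CPM against 4.48, 8.89 and 3.504 CPM (-0.68 ± 0.33, edgeR adjusted p = 0.0995). It passed as lower without FTY720 replicate 3 (-0.88, edgeR adjusted p = 0.0232), without FTY720_LPS replicate 2 (-1.15, 0.0242), with upper-quartile factors (-0.81, 0.0494) and with total library size alone (-0.96, 0.0372).

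Levels between genes were compared as CPM per kilobase of the principal transcript in GENCODE M21. With FTY720 alone Npm1 led at 178 ± 30.2 CPM per kilobase (SD, n = 3), followed by Polr1c at 26.9 ± 2.81, Gnl3 at 23.7 ± 6.40 and Pes1 at 20.1 ± 1.23. After Npm1, Polr1c and Gnl3, and Gnl3 and Pes1, differed by less than their spread. At the lower end stood Polr1a at 1.06 ± 0.328, Rrp12 at 0.850 ± 0.148, Polr1b at 0.646 ± 0.257 and Gar1 at 0.613 ± 0.547 CPM per kilobase. With LPS the order after Npm1 (406 ± 16.0) became Polr1c at 48.9 ± 2.25, Nop56 at 47.0 ± 6.91, Nop10 at 31.9 ± 2.93 and Gnl3 at 31.1 ± 6.08. Nop56 had stood at 12.7 ± 1.23 CPM per kilobase without LPS. Polr1a and Polr1c, partners in one enzyme, thus differed in level per length already with FTY720 alone. The principal transcript of Ncl is annotated at 8202 bases, and its level of 6.93 ± 1.54 rests on that model.

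The calls were also counted by transcript length. Of the 19 members with principal transcripts of up to 2804 bases 9 were higher and, by edgeR, 0 lower (0 at an unadjusted p under 0.05; DESeq2 called 0 of the 37 lower), and their median log2 fold change was 0.53, and of the 18 longer ones 3 were higher and 2 lower, their median being 0.23. Over all tested genes with a length, 27.7% of those up to 2804 bases were higher and 16.5% lower, and 20.3% of the longer ones were higher and 27.2% lower, so the same direction of difference was seen outside the members. Across the 37 members Spearman's rho between transcript length and log2 fold change was -0.38, against -0.16 across 9633 tested genes with a length. FTY720 replicate 3, which had the smallest Rn45s share (20.5% of gene reads), also had lower values in longer transcripts: its difference from the mean of FTY720 replicates 1 and 2 had a rho of -0.53 with length across the members and -0.30 across all genes. Without that library the rho between length and log2 fold change was -0.46 across the members. These values share libraries and are given as a description. The 2 genes called lower, Wdr12 at 10012 bases and Polr1a at 9216, had the longest principal transcripts of the 37. Next in length were Utp20 at 8821 bases, which did not pass the test, and Ncl at 8202, which rose. All these lengths rest on GENCODE M21 models, which may differ from the unnamed annotation behind the counts. The part of length in the calls was not tested.

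Ribosome biogenesis genes outside the 40 also held more calls upward than downward with TMM scaling. Of 149 tested, 31 were higher (20.8%, against 23.3% of all tested genes) and 13 lower (8.72%, against 22.7%), and the median log2 fold change was 0.17. Scaling by total library size alone left 2 higher and 18 lower (1.34% and 12.1%, against 7.57% and 26.6% of all tested genes). Among 43 other factors of the small subunit 13 were higher (30.2%) and 0 lower by edgeR (1 lower at an unadjusted p under 0.05, and 0 by DESeq2). The calls upward were led by Nhp2l1, a further box C/D protein (0.98 ± 0.15, edgeR adjusted p = 1.47e-05), and Esf1 (0.92 ± 0.27). Scaled by total library size, 0 of these 43 were higher and 1 lower (2.33%) by edgeR (1 and 2 at an unadjusted p under 0.05). Among 48 other factors of the large subunit 13 were higher and 3 lower (27.1% and 6.25%, against 23.3% and 22.7% of all tested genes). Las1l, the endonuclease subunit that cuts between the 5.8S and 28S parts, was 2.91-fold higher (1.54 ± 0.35, edgeR adjusted p = 0.000984), and the helicase gene Ddx51 was 2.59-fold lower (-1.38 ± 0.23, adjusted p = 4.95e-05). The count for these 48 became 1 higher and 7 lower when scaled by total library size (2.08% and 14.6%, against 7.57% and 26.6% of all tested genes).

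The other genes of RNA polymerase I also held calls in both directions. Of 12 tested 2 were higher and 2 lower (16.7% and 16.7%, against 23.3% and 22.7% of all tested genes). All of these were subunits of SL1, the complex that places the polymerase on the promoter. Taf1d rose from 51.1 ± 12.7 to 127 ± 8.23 CPM (SD, n = 3; 1.29 ± 0.15, edgeR adjusted p = 1.95e-07) and Taf1c was 1.59-fold higher (0.67 ± 0.23), whereas Taf1a fell from 5.65 ± 0.70 to 2.21 ± 1.16 CPM (-1.37 ± 0.40, edgeR adjusted p = 0.00811) and Taf1b was 1.91-fold lower (-0.93 ± 0.27). Of 25 snoRNP assembly and exosome genes 1 was higher (4.0%) and 2 lower (8.0%). Exosc9 rose (0.55 ± 0.22), and those lower were Exosc7 (-0.99 ± 0.27) and Tcof1, which encodes treacle, a partner of UBF (-0.80 ± 0.28). Of 21 tested RNA polymerase III and 5S genes 2 were higher (9.52%) and 6 lower (28.6%), with Bdp1 at 0.82 ± 0.20 and Polr3gl at -1.34 ± 0.37.

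Myc, which encodes the best known activator of this pathway, had few reads. It stood at 4.01, 8.35 and 6.12 CPM with FTY720 and at 4.85, 4.65 and 5.01 CPM with LPS, with overlap (-0.35 ± 0.34, edgeR adjusted p = 0.416). Among the 11 tested genes of its network, Mxd1, which encodes a competitor for the MYC partner MAX, was 2.36-fold higher (1.24 ± 0.17, edgeR adjusted p = 1.98e-06), and Mnt, which encodes another, was 2.27-fold lower (-1.18 ± 0.32, edgeR adjusted p = 0.00448). Mga, which encodes a further MAX partner, was 1.58-fold lower (-0.66 ± 0.12). Rn45s, the product of RNA polymerase I, did not differ past the test (-0.02 ± 0.28, edgeR adjusted p = 0.97). Its share of gene reads was 20.5% to 48.8% over the 6 libraries after depletion of ribosomal RNA, so its level here also carries how completely each library was depleted.

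Cytosolic ribosomal protein genes, which supply the proteins that these factors assemble, were higher in 75 of 78 tested and lower in 0 (0 at an unadjusted p under 0.05 by edgeR, and 0 by DESeq2), with a median of 0.67, and were led by Rplp0 (1.09 ± 0.10) and Rps20 (1.01 ± 0.13). However, 1 of 78 was called higher with total library size alone (1.28%, against 7.57% of all tested genes). With the expression trend removed the count was 17 (21.8%, against 21.3% of all tested genes). Reads shared with their pseudogenes were not counted. Host genes of small nucleolar RNAs (snoRNAs), which release these guides from their introns, were higher in 6 of 13 tested (46.2%, against 23.3% of all tested genes) and lower in 0 (0 at an unadjusted p under 0.05 by edgeR, and 0 by DESeq2). The host genes were led by Taf1d and Snhg8 (1.10 ± 0.21). With total library size alone 2 of them were higher (15.4%, against 7.57%). Among the 40 members, GENCODE M21 places 19 snoRNA genes inside Nop56, Nop58, Ncl, Dkc1, Wdr43 and Gnl3. The 11 of them with a row in the tables had at most 5 reads in a library and were too scarce to test, so the hosted guides could not be compared with their hosts.

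**Figure D4:**
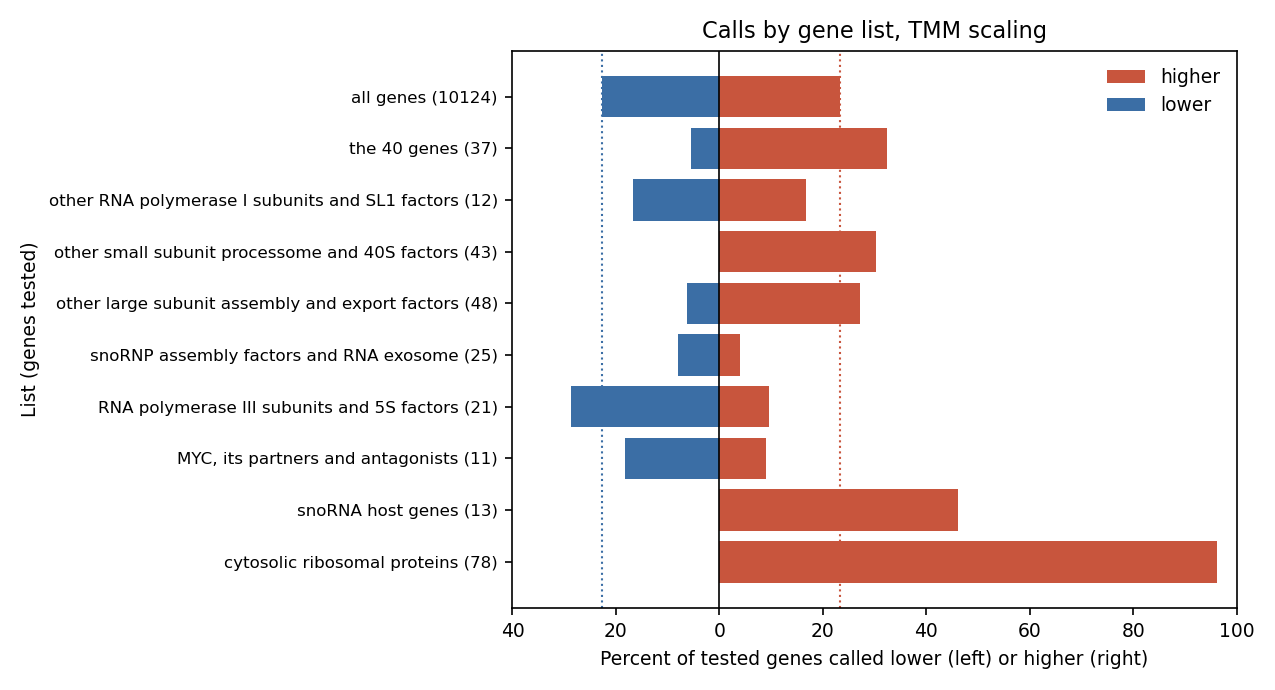
Percent of tested genes called higher (right) or lower (left) on the x axis for all genes, the 40 genes and the pathway lists (y axis, genes tested in brackets), with TMM scaling; dotted lines mark all genes at 23.3% and 22.7%. The 40 genes stood at 32.4% and 5.41% and ribosomal proteins at 96.2% and 0%, while with total library size alone these shares were 8.11% and 8.11%, and 1.28% and 0%. In that setting all genes stood at 7.57% and 26.6%.

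Promoter windows, from 250 bases before to 50 bases after the annotated start, were found for 33 of the 40 members in RefSeq on GRCm38.p6; Bop1, Fbl, Gnl2, Npm1, Rrp12, Rrs1 and Utp6 were not matched. The E-box CACGTG, the palindromic motif that MYC and MAX bind, occurred in 6 of 33 (18.2%), against 8.09% of 27025 genes. These were Nop2, Pes1, Rrn3, Utp18, Utp20 and Wdr43, and none (0) of the 10 matched genes that edgeR called higher was among them. At shares of this size a count of 0 among 10 genes says little, and Npm1 and Bop1, which rose, had no window. The motif CCGGAAGT on either strand, a core of ETS factor sites, occurred in 7 of 33 (21.2%), against 4.31% of all genes, among them Polr1c and Brix1 of the genes that rose. Its shorter part GGAAGT on either strand, which every CCGGAAGT match contains, occurred in 17 of 33 (51.5%) against 26.5%, and a consensus κB site and the palindromic ZBTB33 motif in 0 of 33 against 0.174% and 0.525%. The 27025 genes were not limited to the 10124 tested here, so these shares do not compare the members with expressed genes alone. The motifs other than the E-box were chosen after fold changes were known, and a match is a description of the sequence, not of binding. The 250 bases before the start are shown for Nop56 and Nop58, the box C/D genes that rose and whose windows hold neither CACGTG nor CCGGAAGT, for Polr1c, which rose and holds CCGGAAGT, and for Rrn3 and Utp18, which did not pass the test and hold CACGTG. Capitals mark CACGTG and CCGGAAGT matches, 5′ to 3′ on the gene's strand.
Nop56, chr2:130274162-130274411, plus strand: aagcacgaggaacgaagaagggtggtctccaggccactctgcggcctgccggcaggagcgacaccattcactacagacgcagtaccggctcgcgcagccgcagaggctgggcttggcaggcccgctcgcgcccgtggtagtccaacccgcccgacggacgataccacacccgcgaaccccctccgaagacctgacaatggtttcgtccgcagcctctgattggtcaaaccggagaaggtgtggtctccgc
Nop58, chr1:59684756-59685005, plus strand: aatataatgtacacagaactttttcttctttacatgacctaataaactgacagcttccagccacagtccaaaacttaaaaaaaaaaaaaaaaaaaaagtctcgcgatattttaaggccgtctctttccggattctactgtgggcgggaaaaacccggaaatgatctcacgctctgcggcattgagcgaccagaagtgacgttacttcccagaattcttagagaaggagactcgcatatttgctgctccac
Polr1c, chr17:46248046-46248295, minus strand: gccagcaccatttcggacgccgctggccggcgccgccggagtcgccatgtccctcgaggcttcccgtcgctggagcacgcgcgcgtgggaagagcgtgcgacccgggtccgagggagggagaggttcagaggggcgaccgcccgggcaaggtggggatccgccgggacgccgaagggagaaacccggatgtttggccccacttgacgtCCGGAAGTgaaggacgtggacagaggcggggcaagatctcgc
Rrn3, chr16:13780449-13780698, plus strand: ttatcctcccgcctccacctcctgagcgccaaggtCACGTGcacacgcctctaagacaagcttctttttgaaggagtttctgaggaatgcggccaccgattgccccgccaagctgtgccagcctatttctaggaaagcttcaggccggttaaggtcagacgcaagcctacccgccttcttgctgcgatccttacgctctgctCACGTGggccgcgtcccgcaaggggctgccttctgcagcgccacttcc
Utp18, chr11:93885767-93886016, minus strand: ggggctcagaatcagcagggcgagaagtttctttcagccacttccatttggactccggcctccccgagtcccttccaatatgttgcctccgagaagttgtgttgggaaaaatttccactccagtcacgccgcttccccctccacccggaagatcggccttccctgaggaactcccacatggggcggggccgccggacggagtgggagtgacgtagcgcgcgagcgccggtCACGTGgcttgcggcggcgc

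Rrn3 held the E-box at 215 and at 48 bases before its start and Utp18 at 20 bases before it, and Polr1c held CCGGAAGT at 42 bases before. In Rrn3 a CCGGAAGT match on the other strand began 6 bases before the start and ran past it, so it is not marked. The groups of Rrn3 did not overlap (0.37 ± 0.18) and those of Utp18 did (-0.15 ± 0.18), while Nop56 without either motif had the largest change of the 37 genes.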

How the data were processed

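Gene expression was measured by strand-specific RNA-seq of ribosomal RNA-depleted total RNA on an Illumina HiSeq2000, per the labels' protocols. Each library has a table that the authors deposited, holding raw counts by gene symbol for both strands together and for each strand, in the layout STAR uses for uniquely mapped reads. Trimmomatic 0.33, CASAVA 1.8.2, STAR 2.5.1, DESeq2 and mm10 appear in the submitters' processing notes, which name no annotation. The column with 98.4% to 98.9% of stranded gene reads served as sense counts. Reads given to no gene stayed out of library sizes and tests. Of each table's reads 42.2% to 44.5% were assigned to no annotated gene feature on the sense strand, a class that can hold intron reads. A further 24.4% to 27.0% had no alignment, 7.69% to 8.15% aligned to several places and 0.0748% to 0.114% were ambiguous.

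Counts were tested with edgeR 4.0.16 (R 4.3.3; quasi-likelihood, TMM factors, filterByExpr with minimum count 10, which kept 10124 of 24411 genes), with Benjamini-Hochberg values over all genes tested. The SE is the absolute log2 fold change over the square root of F. DESeq2 1.42.0, other scalings, no filter, unstranded counts, removal of the loess trend (span 0.5) on mean expression, a replicate block and leaving out each library were alternatives. Group overlap was read on log2 CPM with a prior count of 2. Scripts were tested on simulated data. The labels' protocols call the replicates biological triplicates from independent RNA samples and do not say whether cultures were separate, so p-values measure the spread between these samples. Replicates differed by more than sampling noise in every pair (chi-square per degree of freedom 1.31 to 64.1). These values include the genes like ribosomal RNA and use no composition scaling, so differences in ribosomal RNA share enter them. Counting intervals cover counting error only, since reads carry no molecular identifiers. A count of 0 allows up to 3 reads, or 0.868 to 1.23 CPM before composition scaling.

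The members and lists were chosen with earlier results of these data known. The named genes were all members (by rule in full for up to 2 higher and 1 lower per role group and for set examples; more were printed in full than this asks), up to 2 called genes of each pathway list with the largest change, and Myc and Rn45s. Taf1b, Taf1c, Exosc9 and Mga were added after their values were seen. Positions and lengths (longest APPRIS principal transcript) came from GENCODE M21 on GRCm38. Promoters came from RefSeq on GRCm38.p6, and the transcript start in the window was found in a GENCODE transcript for 31 of 33 matched members, not for Ncl and Nop2.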

Additional observations from a re-analysis of the deposited data

How the results depend on the processing

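Of the 12 calls upward, those of Nop56, Ncl and Npm1 held in all 14 alternatives, with the Npm1 log2 fold change as low as 0.43. The calls of 7 genes (Polr1c, Nop58, Nop10, Ddx21, Nop14, Bop1 and Brix1) held in all but total library size alone. That setting gave 766 genes higher over the whole table, 3 members and 2 other pathway genes higher, and a member median of -0.059, whereas upper-quartile factors gave a median of 0.12 and 18 other pathway genes higher and 20 lower. DESeq2 called 1529 genes lower over the whole table, 0 members lower and 6 other pathway genes lower, and removal of the expression trend left 0 members lower by edgeR; at an unadjusted p under 0.05 these were 2 and 1 members. Leaving out 1 library each gave 0 to 5 members lower, 5 to 16 other pathway genes lower and 20 to 39 higher; the extremes came without FTY720 replicate 3 (5 members lower, 39 other pathway genes higher and 16 lower), while edgeR called 0 members lower (2 at an unadjusted p under 0.05) without FTY720 replicate 1 or FTY720_LPS replicate 1, and 1 without FTY720 replicate 2 or FTY720_LPS replicate 3. Without FTY720_LPS replicate 2, 20 other pathway genes were higher and 5 lower, and 8 were lower without FTY720 replicate 1, FTY720_LPS replicate 1 or FTY720_LPS replicate 3. The cause of these shifts was not tested.

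Log2 fold changes that changed sign belonged to genes past the test neither before nor after. With total library size alone they were Ubtf (-0.0174), Nolc1 (-0.0436), Wdr43 (-0.21), Wdr75 (-0.059), Utp3 (-0.20), Utp6 (-0.0899), Utp14a (-0.29), Rrs1 (-0.0666), Ftsj3 (-0.0722) and Gnl2 (-0.0745), and with upper-quartile factors Wdr43 (-0.0143), Utp3 (-0.0146) and Utp14a (-0.0824). With the expression trend removed Fbl stood at 0.0715 and Rrp12 at 0.37, and with unstranded counts Rrp12 at 0.0627. Leaving out 1 library each gave ranges on both sides of 0 for Fbl (-0.29 to 0.21), Utp14a (-0.00698 to 0.21), Utp18 (-0.20 to 0.0119), Rrp12 (-0.17 to 0.13) and Rrs1 (-0.12 to 0.64).

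The groups share replicate numbers. Deviations from the group means of same-numbered libraries correlated at -0.07 to -0.02 over 3 pairs. So few libraries cannot show whether same-numbered samples shared a culture or a preparation. With the replicate block 11 members were higher and 2 lower, and over all genes 2292 and 2171. With 1340915 to 2116218 reads per library for genes other than those like ribosomal RNA, depth left Polr1b, Gar1 and Nhp2 untested and gave wide errors for scarce members such as Rrp12, Nop2 and Rrs1.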
